A study of Mus musculus with 2 samples.

Results

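The genes described here are 10 members of the transforming growth factor-beta superfamily pathways out of 27998 genes in the count table: the ligand genes Bmp7, Inhba, Inhbb, Tgfb1 and Tgfb2, the receptor genes Bmpr1a, Bmpr2, Acvr1 and Acvr2a, and Fst, which encodes follistatin. They were chosen by name, and each of the 10 had unique molecular identifiers (UMIs, 1 per captured mRNA molecule) in both libraries. Cells came from mouse mammary transplants and were profiled by droplet-based single-cell RNA sequencing on the 10x Genomics platform. To ask what basal cells need Fgfr2, a receptor of fibroblast growth factors, for during regeneration, donor basal cells were mixed with wild-type luminal cells and placed into cleared fat pads of young female nude mice, and cells were collected within days. In the Ctrl library (genotype WT) the basal donor was Fgfr2+/+, and in the Fgfr2 KO library it was Fgfr2 fl/fl, deleted to a null allele by an adenovirus carrying Cre and GFP. Donor cells of both kinds carried the R26R mT/mG reporter, which makes Tdtomato and, after Cre, membrane GFP, so that basal cells of both groups met the virus while luminal cells were meant not to. The nude host lacks most T cells but keeps macrophages and other immune cells, and the labels do not say how many animals were pooled.

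The ligands of this superfamily are secreted dimers that bring type I and type II receptor serine/threonine kinases together on a target cell, and the receptors then phosphorylate Smad proteins that enter the nucleus. BMP ligands act mainly through Smad1, Smad5 and their targets the Id genes, whereas activins, which are dimers of the subunits encoded by Inhba and Inhbb, and the TGF-beta ligands act mainly through Smad2 and Smad3. Follistatin binds activins tightly and BMP7 more weakly, outside the cell. In the mammary gland, basal (myoepithelial) cells lie against the stroma and luminal cells line the duct, so that a ligand made in one layer can reach receptors on the other.

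There was 1 library per group, of 268 Ctrl and 86 Fgfr2 KO cells with medians of 16301 and 10485 UMIs, so no test between groups was possible. Intervals are 95% intervals for counting error only, not for the spread between animals or cells. Levels are UMIs of a gene per 1000000 UMIs of the cells summed (CPM), and since they depend on how well each mRNA is captured they are compared within a gene, never between genes. Any cell in which Ptprc, which encodes CD45, had 1 UMI or more was placed in a CD45-positive class. The others were classed by the larger of the summed Krt14 and Krt5 UMIs and the summed Krt8 and Krt18 UMIs, with at least 10 such UMIs required. This gave 63 Ctrl and 17 Fgfr2 KO basal-keratin cells, 98 and 20 luminal-keratin cells, 73 and 23 CD45-positive cells, and 34 and 26 keratin-low cells that met neither condition. Leaving out the 4 keratins that set the classes, the 7 other basal markers summed to 3572 CPM in basal-keratin and 878 CPM in luminal-keratin cells of Ctrl, and the 7 other luminal markers to 1284 and 4451 CPM. In Fgfr2 KO these sums were 6409 and 707 CPM for the basal and 806 and 3264 CPM for the luminal markers. Fgfr2 itself was 32.9 CPM (23.6 to 44.7, 41 UMIs) in Ctrl and 24.7 CPM (9.94 to 51.0, 7 UMIs) in Fgfr2 KO basal-keratin cells, intervals that overlap, and whether these UMIs come from the deleted part of the gene is not known.

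Several features of the libraries touch the results below. Of the Ctrl cells, 42 had keratin sums within 3-fold of each other (20 basal-keratin and 22 luminal-keratin), against 2 in Fgfr2 KO, both basal-keratin; these are called cells near the border. GFP UMIs occurred in 19 of the 63 basal-keratin cells of Ctrl and in 9 of the 17 of the other library. They also occurred in 39 of 98 luminal-keratin cells of Ctrl and 14 of 20 of Fgfr2 KO. The summed level there was 171 CPM (155 to 187) and 1227 CPM (1135 to 1325). Luminal donor cells, however, were by design not exposed to Cre. The paper reports that a few wild-type and many Fgfr2 null basal donor cells took a luminal fate in grafts collected later. Which donor these GFP-bearing cells came from was not tested. Outside the keratin classes, GFP UMIs occurred in 6 of 73 CD45-positive and 1 of 34 keratin-low cells of Ctrl. In Fgfr2 KO these were 2 of 23 and 7 of 26. In Ctrl, 276 of the 449 luminal-keratin GFP UMIs lay in 1 cell. Of the CD45-positive cells, 15 in Ctrl and 1 in Fgfr2 KO had at least 10 keratin UMIs.

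Bmp7 encodes a bone morphogenetic protein and lies on chromosome 2 from 172868012 to 172940321 on the minus strand (GRCm38). In Ctrl it had 66 UMIs in basal-keratin cells, 53.0 CPM (41.0 to 67.4), and 27 UMIs in luminal-keratin cells, 10.3 CPM (6.77 to 14.9). Basal-keratin cells were thus 5.16-fold higher, a log2 ratio of 2.37 (1.70 to 3.07). A Bmp7 UMI was seen in 36 of 63 basal-keratin cells (57.1%) and 15 of 98 luminal-keratin cells (15.3%), and after each cell was thinned to 5000 UMIs in 21.5% and 5.06%. In CD45-positive cells with under 10 keratin UMIs, which should lack it, Bmp7 was at 0 of 58 cells.

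Most luminal-keratin Bmp7 in Ctrl lay in cells of mixed keratin content. The 22 luminal-keratin cells near the border held 21 of the 27 UMIs, 40.0 CPM (24.8 to 61.2), and the 76 others held 6 UMIs, 2.85 CPM (1.05 to 6.21). On the basal side the order was the other way round, with 65.7 CPM (49.5 to 85.5) in the 43 clear basal-keratin cells and 26.9 CPM (13.4 to 48.2) in the 20 near the border. With only the clear cells of each side, the log2 ratio was 4.53 in place of 2.37. In Fgfr2 KO the 11 basal-keratin UMIs gave 38.9 CPM (19.4 to 69.5) and the 7 luminal-keratin UMIs 13.1 CPM (5.25 to 26.9), a log2 ratio of 1.57 (0.08 to 3.18), and no luminal-keratin cell was near the border. Whether cells near the border are doublets, mixed with free RNA or of a mixed state was not tested.

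Inhba and Inhbb, which encode the activin subunits beta A and beta B, had the opposite layout. Inhba (chromosome 13, 16011851 to 16031621, plus strand) had 323 UMIs in luminal-keratin cells of Ctrl, 123 CPM (110 to 137), and 17 UMIs in basal-keratin cells, 13.6 CPM (7.95 to 21.9), a log2 ratio of basal over luminal of -3.17 (-3.97 to -2.47). The thinned share of basal-keratin cells with an Inhba UMI, 5.79%, was below the 6.28% of CD45-positive cells with under 10 keratin UMIs (median depths 16117 and 10147.5 UMIs), and 1 basal-keratin cell held 6 of the 17 UMIs. The basal-keratin share thus did not exceed that of CD45-positive cells, which may themselves express Inhba, and free RNA was not measured. Luminal-keratin cells stood at 26.3%, and those near the border and the clear ones had overlapping intervals, at 137 CPM (107 to 173) and 119 CPM (105 to 135).

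Inhbb (chromosome 1, 119415465 to 119422248, minus strand) was 52.9 CPM (44.5 to 62.4, 139 UMIs) in luminal-keratin and 22.5 CPM (14.9 to 32.5, 28 UMIs) in basal-keratin cells of Ctrl, a log2 ratio of -1.23 (-1.88 to -0.64). No Inhbb UMI was found in the 58 CD45-positive cells with few keratin UMIs, so its basal-keratin level is above that background. Within Ctrl luminal-keratin cells, Inhba was 142 CPM (122 to 165) in the 54 cells with more hormone-sensing than progenitor genes detected and 94.0 CPM (75.8 to 115) in the 32 with more progenitor genes. Of the latter, 1 cell held 57 of the 92 UMIs, and without the top cell of each set the levels were 126 CPM (107 to 147) and 39.7 CPM (27.6 to 55.2). Inhbb was 55.6 CPM (43.4 to 70.1) and 40.9 CPM (29.2 to 55.7) in these cells, intervals that overlap. Bmp7 stood the other way, at 3.13 CPM (0.853 to 8.01) and 15.3 CPM (8.58 to 25.3), but without the top cells the intervals overlap, 0.492 to 6.97 and 5.89 to 21.1.

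The 2 activin subunit genes, both higher in luminal-keratin cells, differ in the sequence before their starts. They are shown because both were higher in luminal-keratin cells and have a promoter entry, which Bmp7 and Fst, the pair higher in basal-keratin cells, do not. Each is given as the 250 bases before the start from RefSeq (GRCm38.p6), 5′ to 3′ on the gene's strand, with a TATAAA or GGGCGG match (either strand) in capitals.
Inhba, chr13:16011601-16011850, plus strand: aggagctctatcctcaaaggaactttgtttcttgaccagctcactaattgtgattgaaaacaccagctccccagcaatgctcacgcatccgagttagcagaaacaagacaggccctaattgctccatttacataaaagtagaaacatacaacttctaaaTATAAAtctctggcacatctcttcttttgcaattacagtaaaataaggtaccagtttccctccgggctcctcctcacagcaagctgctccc
Inhbb, chr1:119422249-119422498, minus strand: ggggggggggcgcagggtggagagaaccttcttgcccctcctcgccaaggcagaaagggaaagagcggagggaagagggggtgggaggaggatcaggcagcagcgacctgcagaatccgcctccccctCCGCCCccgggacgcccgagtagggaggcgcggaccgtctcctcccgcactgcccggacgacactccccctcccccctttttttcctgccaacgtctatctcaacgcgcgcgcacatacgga
The Inhba stretch is 43.2% G and C with 3 CpG dinucleotides, and its TATAAA begins 91 bases before the start. The Inhbb stretch is 68% G and C with 21 CpG dinucleotides, and its GGGCGG match, read on the other strand, begins 122 bases before the start. Of 32841 such stretches in the table the median is 52.4% and 6 CpG, 12.4% hold TATAAA and 32.7% hold GGGCGG. The AP-1 site TGANTCA, the cyclic AMP response element TGACGTCA and the Smad palindrome GTCTAGAC (6.75%, 1.55% and 0.167% of all stretches) were found in none of the 8 members with an entry, and no match could be sought for Bmp7 and Fst. These matches are descriptions of the letters only.

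Tgfb1 and Tgfb2 encode TGF-beta ligands. Tgfb2 (chromosome 1, 186622792 to 186705989, minus strand) was 43.0 CPM (35.4 to 51.7) in luminal-keratin and 26.5 CPM (18.2 to 37.2) in basal-keratin cells of Ctrl, a log2 ratio of -0.70 (-1.30 to -0.13). Tgfb1 (chromosome 7, 25687002 to 25705077, plus strand) was 52.9 CPM (44.5 to 62.4) and 28.9 CPM (20.2 to 40.0), a log2 ratio of -0.87 (-1.44 to -0.33). Both thus lay on the luminal side, but the size moved with the cells counted. In cells with a GFP UMI the ratio was 0.06 for Tgfb2 and -0.27 for Tgfb1. Without a GFP UMI both passed 2-fold, Tgfb2 at -1.30 and Tgfb1 with 69.8 CPM in luminal-keratin and 30.4 CPM in basal-keratin cells. Tgfb1 also passed it with a 3-fold keratin excess (-1.29). Within luminal-keratin cells, Tgfb1 was 70.4 CPM (56.6 to 86.6) where hormone-sensing genes prevailed and 27.6 CPM (18.2 to 40.1) where progenitor genes did, and in Fgfr2 KO it was 84.6 CPM (51.7 to 131) and 10.5 CPM (1.27 to 37.8).

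Fst (chromosome 13, 114452290 to 114458951, minus strand) was the member with the most UMIs in Ctrl (813), and in Fgfr2 KO it came second, with 79 against 85 of Tgfb1. Ctrl had 525 UMIs in basal-keratin cells, 421 CPM (386 to 459), and 191 UMIs in luminal-keratin cells, 72.7 CPM (62.7 to 83.7), a log2 ratio of 2.54 (2.29 to 2.78). The 20 basal-keratin cells near the border stood at 637 CPM (562 to 719) and the clear ones at 317 CPM (280 to 357), but 3 deep cells, with 87, 62 and 55 Fst UMIs, held 204 of the 260 UMIs near the border. The other 17 cells stood at 232 CPM (175 to 301), and the clear ones without their own 3 top cells at 265 CPM (229 to 305), so no order of these cells is read. All 36 Ctrl basal-keratin cells with a Bmp7 UMI also had an Fst UMI, and 52 of the 63 cells had one. Cells with both had a median of 18493 UMIs against 10404 in the rest, so depth moves with this overlap and its part was not tested. In luminal-keratin cells of Ctrl, 21 of the 51 cells with an Inhba UMI had an Fst UMI.

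**Figure D1:**
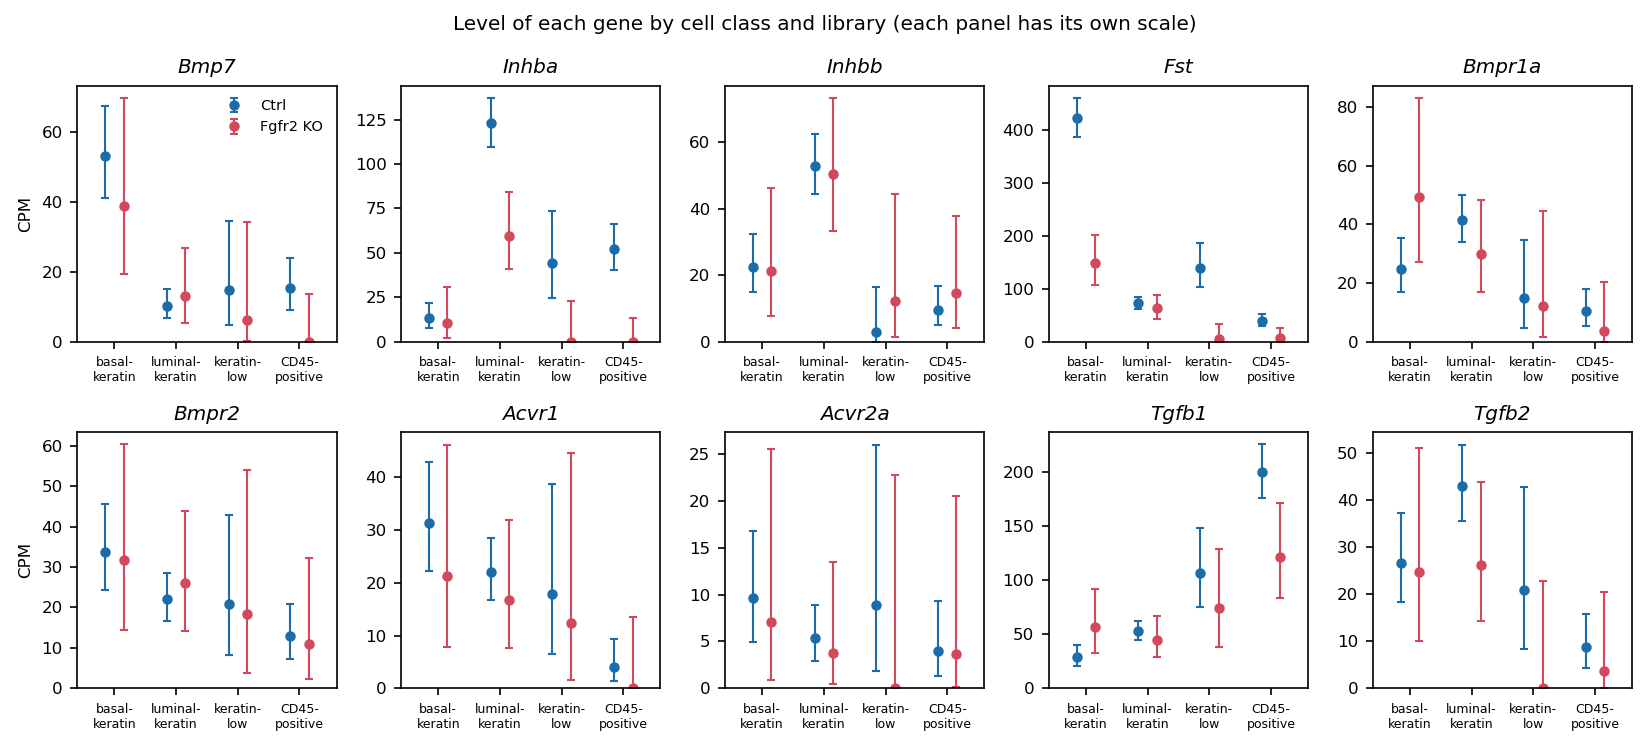
Level of each of the 10 genes in CPM (vertical axis, its own scale in each panel) in the 4 cell classes (horizontal axis) of the Ctrl (blue) and Fgfr2 KO (red) libraries. Points are summed levels and bars exact 95% Poisson intervals for counting error. Bmp7 and Fst are highest in basal-keratin cells, Inhba and Inhbb in luminal-keratin cells and Tgfb1 in CD45-positive cells, in both libraries.

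**Figure D2:**
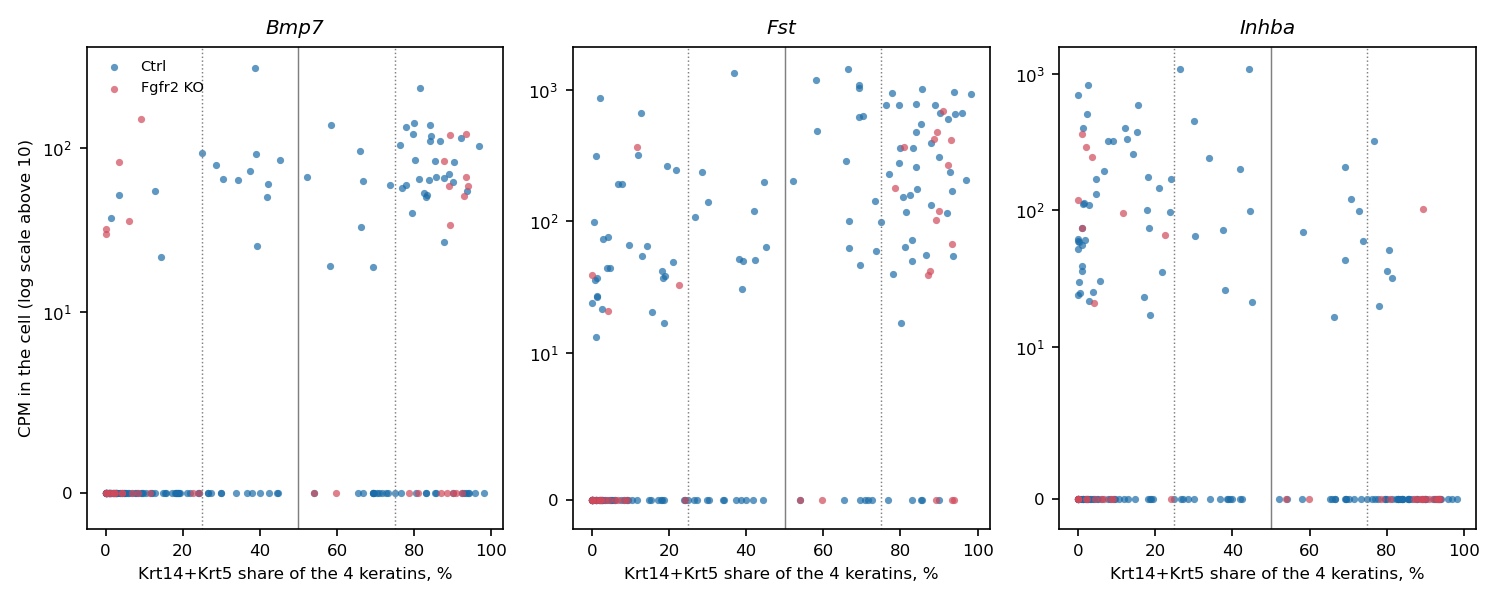
Level of Bmp7, Fst and Inhba in each basal-keratin or luminal-keratin cell (vertical axis, CPM, logarithmic above 10) against the share of its 4 keratins' UMIs that are Krt14 or Krt5 (horizontal axis, percent), with Ctrl in blue and Fgfr2 KO in red. The solid line marks equal sums and the dotted lines a 3-fold excess. Between the dotted lines are 42 Ctrl and 2 Fgfr2 KO cells, and Bmp7 UMIs of Ctrl extend left to the lower dotted line and are rare beyond it.

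None of the 4 receptor genes reached 2-fold between the keratin classes of Ctrl, although Bmpr2 (1.35) and Acvr2a (1.54, 7 UMIs on each side) did in cells with a GFP UMI. Bmpr1a, which encodes a type I receptor of BMPs (chromosome 14, 34410734 to 34503341, minus strand), was 41.5 CPM (34.1 to 50.0) in luminal-keratin and 24.9 CPM (16.9 to 35.3) in basal-keratin cells of Ctrl, a log2 ratio of -0.74 (-1.36 to -0.15). Bmpr2, the gene of the BMP type II receptor (chromosome 1, 59763400 to 59879014, plus strand), was 22.1 CPM (16.8 to 28.5) and 33.7 CPM (24.3 to 45.6), a log2 ratio of 0.61 (0.00 to 1.21). Acvr1, the gene of the type I receptor ALK2 (chromosome 2, 58388644 to 58567157, minus strand), was 22.1 CPM (16.8 to 28.5) and 31.3 CPM (22.3 to 42.8), a log2 ratio of 0.50 (-0.12 to 1.12). For Acvr2a, the gene of an activin type II receptor (chromosome 2, 48814109 to 48903269, plus strand), 14 and 12 UMIs gave 5.33 CPM (2.91 to 8.94) and 9.63 CPM (4.98 to 16.8), and its thinned luminal-keratin share of 2.66% was close to the 2.20% of CD45-positive cells with few keratin UMIs. Acvr1 was 34.3 CPM (20.3 to 54.2) in luminal-keratin cells near the border and 19.0 CPM (13.6 to 25.9) in the clear ones, intervals that overlap.

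A type I receptor UMI (Bmpr1a or Acvr1) and a type II receptor UMI (Bmpr2 or Acvr2a) were found in the same cell in 23 of 63 basal-keratin (36.5%, 24.7 to 49.6) and 38 of 98 luminal-keratin cells (38.8%, 29.1 to 49.2) of Ctrl. In Fgfr2 KO these were 5 of 17 (29.4%, 10.3 to 56.0) and 10 of 20 (50%, 27.2 to 72.8). The shares overlap between the classes and between the libraries. CD45-positive cells had such a pair in 5 of 73 (6.85%) and 1 of 23 (4.35%). At 5000 UMIs per cell the shares were 5.30% and 4.53% in basal-keratin and luminal-keratin cells of Ctrl and 0.959% in its CD45-positive cells.

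Over all 10 genes, each tested with at least 20 UMIs in the cells compared, 2 were at least 2-fold higher in basal-keratin than in luminal-keratin cells of Ctrl (Bmp7 and Fst) and 2 at least 2-fold lower (Inhba and Inhbb), where 5.51% and 9.05% of 9535 genes were. Their median log2 ratio was -0.10, and that of all genes -0.11. In Fgfr2 KO, 7 of the 10 had 20 UMIs, of which Fst was at least 2-fold higher and Inhba and Inhbb lower, where 7.33% and 13.8% of 4653 genes were. There the log2 ratio of Inhba was -2.49 (-4.84 to -0.82), that of Inhbb -1.25 (-2.81 to 0.06) and that of Fst 1.23 (0.54 to 1.92). The Fst ratio rests on 1 luminal-keratin cell with 31 of the 34 UMIs, and without the cell with most Fst UMIs on each side it was 4.27. With only the 8 and 6 cells free of GFP UMIs, Fst alone had 20 UMIs and was past 2-fold, while Inhba, with 0 UMIs against 14, and Inhbb, with 1 against 9, fell under that minimum.

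**Figure D3:**
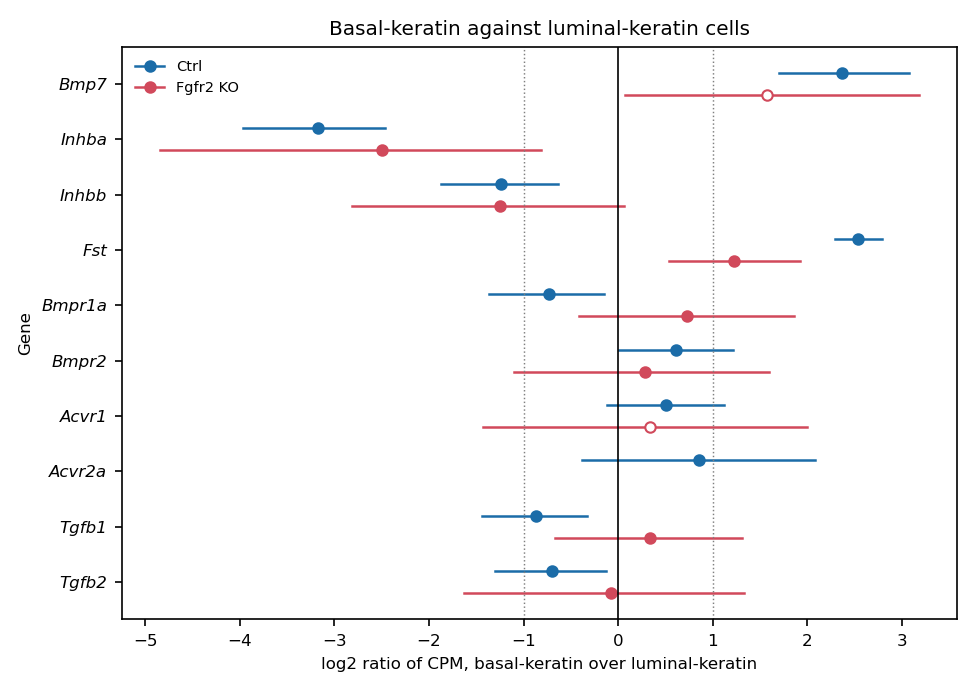
Log2 ratio of the level in basal-keratin over luminal-keratin cells (horizontal axis) for each gene (vertical axis) in Ctrl (blue) and Fgfr2 KO (red), with exact 95% intervals for counting error. Open points had under 20 UMIs, and dotted lines mark 2-fold. Acvr2a in Fgfr2 KO, with 2 UMIs on each side, has no point. Bmp7 and Fst lie to the right and Inhba and Inhbb to the left in both libraries.

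Tgfb1 was highest in CD45-positive cells. In Ctrl it was 200 CPM (176 to 226, 249 UMIs) there, a log2 ratio over all keratin cells of 2.14 (1.86 to 2.43), with 61 of 73 cells positive (83.6%). In Fgfr2 KO it was 122 CPM (83.7 to 171, 33 UMIs), a ratio of 1.32 (0.61 to 2.02). The Ctrl cells with under 10 keratin UMIs stood at 226 CPM (192 to 265). The 2 cells with the most Tgfb1 UMIs, 27 and 21, each had a single Ptprc UMI and 26 and 31 UMIs of the endothelial markers Pecam1, Cdh5 and Kdr, and with CD45-positive cells defined by 2 Ptprc UMIs the Ctrl ratio was 1.76.

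Of the 10 members tested, 6 were at least 2-fold lower in CD45-positive than in keratin cells of Ctrl, and Tgfb1 was higher. Of 10364 genes, 21.4% were lower and 9.51% higher. With CD45-positive cells defined by 2 Ptprc UMIs, or with equal weight per cell, all 10 members differed past 2-fold. In Fgfr2 KO, 6 of 7 tested were lower and 1 higher, against 19.5% and 11.3% of 5689 genes. The remaining signal of the epithelial ligands lay in the CD45-positive cells that also had keratins. The 15 such cells of Ctrl held all 19 Bmp7 UMIs, 14 of them in 1 cell with 86048 UMIs and 165 UMIs of Krt14 and Krt5, and 55 of 65 Inhba UMIs, 27 of these in 1 cell. They also held 46 of 50 Fst and all 12 Inhbb UMIs. Between the libraries, 3 members could be compared in CD45-positive cells. Of these, 0 were higher and 2 lower by 2-fold, Inhba with 0 UMIs against 65 and Fst with 2 against 50. Of 6345 genes, 7.80% were higher and 12.2% lower. With its 0 set to the floor of 3 counts Inhba was 4.71-fold lower, and its interval reached up to a log2 ratio of -1.90. Among cells with under 10 keratin UMIs, Tgfb1 alone had 20 UMIs (152 and 24), and it was not past 2-fold.

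In basal-keratin cells, Fst was the member that differed past 2-fold between the libraries. It had UMIs in 52 of 63 and 12 of 17 cells, and its level of 148 CPM (107 to 201, 42 UMIs) in Fgfr2 KO against 421 CPM gave a log2 ratio, Fgfr2 KO over Ctrl, of -1.51 (-2.0 to -1.05). Bmp7 was 53.0 and 38.9 CPM, a ratio of -0.45 (-1.52 to 0.48), so a lower Bmp7 level was not detectable at this depth. In the basal-keratin cells with a GFP UMI, Bmp7 was 46.0 CPM (27.2 to 72.7, 19 cells) and 36.2 CPM (13.3 to 78.9, 9 cells). Tgfb1 stood at 28.9 and 56.5 CPM (32.3 to 91.8), a ratio of 0.97 (0.02 to 1.85), and Bmpr1a at 24.9 and 49.5 CPM (27.0 to 83.0), a ratio of 0.99 (-0.03 to 1.94), both just inside 2-fold. Tgfb1 passed 2-fold with a 3-fold keratin excess (1.35) and with a GFP UMI required (1.38), and was 0.48 without GFP. For Bmpr1a the ratio was 1.70 with a GFP UMI (on under 20 UMIs) and 0.47 with a 3-fold excess. Without a GFP UMI it was -0.08, on 3 Fgfr2 KO UMIs. For Bmpr1a, 6 of the 14 Fgfr2 KO UMIs came from the 2 cells near the border.

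The other members of the basal-keratin comparison lay between -0.56 (Acvr1) and -0.08 (Inhbb and Bmpr2), but several moved with the cells counted. Inhbb was -2.01 with a 3-fold keratin excess (on under 20 UMIs) and -1.45 without the top cells. It was -1.66 in cells without a GFP UMI (1 Fgfr2 KO UMI) and 1.24 in those with one (on under 20 UMIs). Tgfb2 turned likewise, at -1.42 without the top cells, 1.64 without GFP and -3.01 with it (1 Fgfr2 KO UMI). Acvr1 was -1.27 without the top cells and Inhba -1.51 with equal weight per cell. No direction is read for these members. Of 9 tested, 0 were higher and 1 lower by 2-fold, where 4.14% and 11.5% of 6637 genes were, and the median was -0.10 for the members and for all genes. The Fst value depended on which cells were counted. It was -0.86 with a 3-fold keratin excess, which leaves out the 20 Ctrl and 2 Fgfr2 KO cells near the border, and -0.90 when each cell had the same weight, both short of 2-fold.

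In luminal-keratin cells, the Inhba level of 123 CPM in Ctrl compared with 59.7 CPM (40.8 to 84.2, 32 UMIs) in the Fgfr2 KO library, and the log2 ratio was -1.04 (-1.61 to -0.52). It fell short of 2-fold without the top cell of each library (-0.98), with a 3-fold keratin excess (-1.0) and with equal weight per cell (-0.78). It was the member past 2-fold of 9 tested, with 0 higher, where 3.94% and 8.97% of 9065 genes were higher and lower. The median was -0.24 for the members and -0.03 for all genes. Inhba UMIs were present in 51 of 98 cells (52.0%) and in 8 of 20 (40.0%), and after thinning in 26.3% and 20.4%. The value also moved with GFP. Among luminal-keratin cells without a GFP UMI, Inhba was 129 CPM (111 to 148, 59 cells) in Ctrl and 124 CPM (67.7 to 208, 14 UMIs in 6 cells) in Fgfr2 KO, a ratio of -0.06 (-0.95 to 0.73). Among those with a GFP UMI it was 115 CPM (96.2 to 137, 39 cells) and 42.5 CPM (25.2 to 67.2, 14 cells), a ratio of -1.44 (-2.23 to -0.72). The intervals of the 2 ratios overlap and their difference was not tested. With the cut at 10 GFP UMIs, luminal-keratin cells below it had Inhba at 124 CPM (111 to 138) in Ctrl and 75.6 CPM (49.4 to 111) in Fgfr2 KO. Both splits were made after the values were seen.

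Inhbb, the other activin subunit, was 52.9 and 50.4 CPM (33.2 to 73.3), a ratio of -0.07 (-0.72 to 0.53). Bmp7 was 10.3 and 13.1 CPM, a ratio of 0.35 (-1.10 to 1.58). It became 2.19 against the clear luminal-keratin cells of Ctrl, but on under 20 UMIs. Fst, at 72.7 and 63.4 CPM (43.9 to 88.6), gave a ratio of -0.20 (-0.77 to 0.34), and without the cell of most UMIs in each library -3.17. Tgfb2, with 10 of its 14 Fgfr2 KO UMIs in 1 cell, gave -0.72 (-1.64 to 0.09) and without the top cells -2.36. In cells without a GFP UMI it turned to 1.14, and in those with one it was -2.30. Tgfb1 and the 4 receptor genes lay between -0.51 (Acvr2a, 16 UMIs) and 0.24 (Bmpr2), and each interval held 0. Without a GFP UMI, Acvr1 was -1.41, on 1 Fgfr2 KO UMI. Acvr2a, on few UMIs, was -1.38 with a GFP UMI, 0.91 without one and -1.07 without the top cells.

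**Figure D4:**
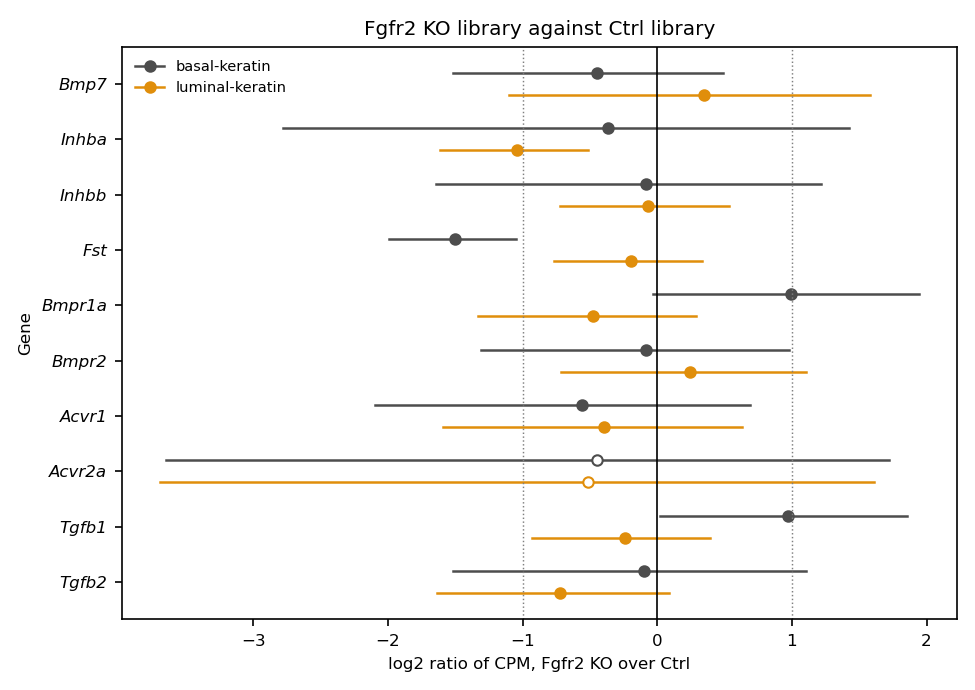
Log2 ratio of the level in the Fgfr2 KO over the Ctrl library (horizontal axis) for each gene (vertical axis) in basal-keratin (grey) and luminal-keratin cells (orange), with exact 95% intervals for counting error. Open points had under 20 UMIs, and dotted lines mark 2-fold. Fst in basal-keratin cells (-1.51) and Inhba in luminal-keratin cells (-1.04) lie past the left dotted line.

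How a gene's UMIs spread over cells differed between the genes. In Ctrl, the 34 Acvr2a UMIs lay in 33 cells with no more than 2 in any, while 9 of 268 cells reached 50% of the Inhba UMIs and 11 those of Fst, against 28 for Bmpr2 and 34 for Tgfb1. In Fgfr2 KO, 3 of 86 cells reached 50% for Inhba and for Fst, and 10 for Tgfb1. A gene's UMI total and the size of the library limit this number, so these counts are not compared between libraries. In Fgfr2 KO, 1 luminal-keratin cell of 84314 UMIs was the top cell for Fst (31 UMIs), Inhba (8 UMIs) and Inhbb (7 UMIs).

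A further 51 pathway genes were read as lists of ligands, receptors, secreted binders and processing enzymes, Smads and targets. Between the libraries, 1 of 24 tested was higher and 4 lower by 2-fold in basal-keratin cells, and 0 of 33 higher and 7 lower in luminal-keratin cells. Of all genes tested, 4.14% were higher and 11.5% lower in basal-keratin cells, and 3.94% and 8.97% in luminal-keratin cells. In basal-keratin cells the 4 lower genes were 2 of 7 tested targets, 1 of 6 Smads and 1 of 8 binders, and in luminal-keratin cells the 7 were 2 of 8 targets, 2 of 4 ligands and 3 of 9 binders, with 0 of 2 and 0 of 5 receptors past 2-fold. In basal-keratin cells Id1, a BMP target that encodes an inhibitor of helix-loop-helix factors, had 48 UMIs in Ctrl (38.5 CPM), 15 of them in 1 cell, and 2 UMIs in Fgfr2 KO (7.07 CPM), which gave a ratio of -2.45 (-5.53 to -0.52). Of the 48 UMIs, 29 lay in the 20 cells near the border, and with a 3-fold keratin excess the ratio was -1.45 (-4.60 to 0.60). Id3 was 375 and 138 CPM, a ratio of -1.44 (-1.95 to -0.97), with 34 of its 39 Fgfr2 KO UMIs in 1 cell, and without the top cells -3.96. With a GFP UMI required it was -0.94. Ltbp3, which encodes a latent TGF-beta binding protein, was 34.5 and 74.2 CPM, a ratio of 1.10 (0.28 to 1.89), and 0.54 in cells without a GFP UMI.

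In luminal-keratin cells Ctgf, a TGF-beta and mechanical response gene, had 873 UMIs in Ctrl, 277 of them in 1 cell, and 7 in Fgfr2 KO, a ratio of -4.67 (-5.99 to -3.62). Fstl1, a follistatin-like gene, gave -2.23 (-4.54 to -0.62), and 32 of its 69 Ctrl UMIs lay in the 22 cells near the border, a kind of cell with 0 members in Fgfr2 KO. Fibroblast markers were also lower there, with all 6 present in Ctrl luminal-keratin cells at 560 CPM (532 to 589) summed, from 0 to 1.56% of a cell's UMIs, and 4 of 6 in Fgfr2 KO at 151 CPM (120 to 188), from 0 to 0.212%. Col1a1, a collagen gene, was 73.4 and 3.73 CPM, and Lum and Pdgfra were at 0 in Fgfr2 KO. The Ctrl cell with most fibroblast marker UMIs, 369 of 1472, held 16 of the Fstl1 and 3 of the Ctgf UMIs. The part of fibroblast RNA in these differences was not tested. Id3 gave -1.15 (-1.62 to -0.72), at 195 and 87.7 CPM, and fell short of 2-fold under 5 alternatives, between -0.88 and -0.38. Between keratin classes of Ctrl, 7 of 33 tested list genes were higher and 6 lower in basal-keratin cells, against 5.51% and 9.05% of all genes. Of these, Id4 (3.19, 2.67 to 3.75), Id1 (2.27) and Fstl1 (2.26, 1.85 to 2.69) were higher in basal-keratin cells. The Id1 ratio did not hold where CD45-positive cells with keratins entered the keratin classes (-0.04) or CD45-positive cells needed 2 Ptprc UMIs (-0.07). Bmp2 (-2.33, -3.59 to -1.29), the gene of another BMP ligand, Ltbp1 (-2.43, -3.53 to -1.50) and the TGF-beta receptor gene Tgfbr2 (-1.76, -2.68 to -0.95) were lower there. In Fgfr2 KO, where 6 of 16 were higher and 2 lower against 7.33% and 13.8% of all genes, Ctgf (5.20, 4.12 to 6.54), Fstl1 (4.80, 3.16 to 7.13) and Id4 (3.54, 2.38 to 4.94) were higher in basal-keratin cells, and Tgfbr2 (-2.94, -6.05 to -0.95) was lower.

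In CD45-positive cells of Ctrl, 16 of 35 tested list genes were at least 2-fold lower than in keratin cells and 7 higher, where 21.4% and 9.51% of all genes were. In Fgfr2 KO, 9 of 20 were lower and 2 higher, against 19.5% and 11.3%. By list, the 16 were 3 of 4 ligands, 2 of 6 receptors, 7 of 10 binders, 3 of 7 Smads and 1 of 8 targets. Among them were Ctgf (-2.49, -2.80 to -2.19), Ltbp1 (-2.32, -3.56 to -1.30) and Ltbp2 (-2.05, -3.15 to -1.13), the gene of another latent TGF-beta binding protein. In Fgfr2 KO, Ctgf, with 1 UMI against 143, and Id4, with 1 against 50, were lower. Higher in Ctrl were Tgfbi, which encodes a matrix protein induced by TGF-beta (a log2 ratio of 3.16), Acvrl1, the gene of the endothelial receptor ALK1 (2.75, 1.91 to 3.64), and Id1 (2.08, 1.62 to 2.55). In Fgfr2 KO the higher ones were Tgfbi (2.51, 1.61 to 3.45, but 0.76 against keratin cells without a GFP UMI) and Id2 (2.48, 2.14 to 2.83). For Id1, 73 of the 94 UMIs came from 1 cell, which was also among the 2 with endothelial marker UMIs and the most Tgfb1. Without that cell Id1 was 17.3 CPM (10.7 to 26.4, 21 UMIs) there and 17.8 CPM in keratin cells, a log2 ratio of -0.04 (-0.82 to 0.68). Between the libraries, 1 of 21 list genes was higher in CD45-positive cells and 7 lower, against 7.80% and 12.2% of all genes. The log2 ratio was 1.12 (0.19 to 1.99) for the inhibitory Smad gene Smad7 and -2.35 (-4.26 to -0.95) for Id1. Neither was stable. For Smad7 the ratio was 0.89 without the top cells. For Id1 it was -0.23 (-2.23 to 1.34) without the same Ctrl cell, at 14.7 CPM (4 UMIs) in Fgfr2 KO, and it turned to 1.52 with only CD45-positive cells of under 10 keratin UMIs.

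No gene reached the correlation set for calling a cell pattern like that of Bmp7 or Inhba. Over the 195 Ctrl cells without Ptprc and 9392 genes, the highest Pearson correlation of log values was 0.445 for Bmp7 (Fbln1) and 0.452 for Inhba (Fn1), below the 0.5 set for calling a pattern alike. These correlations are descriptions across cells of 1 library that differ in depth. Bmp7 had 117 UMIs in 58 of 268 Ctrl cells, and counts this low limit any correlation, so a shared pattern could be missed.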

How the data were processed

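The authors deposited raw UMI counts per gene and cell, made with Cell Ranger (version 2.1.1 and build mm10, per the submitters' processing notes) and its aggregation step. Whether that step thinned reads is not stated. Counts for 27998 genes in 2 libraries were summed per library and cell class. Levels carry exact Poisson intervals, ratios exact conditional binomial and shares exact Clopper-Pearson intervals (Python 3.11.15, SciPy 1.17.1). The interval step was tested on simulated Poisson counts, the law it assumes. The simulation had no clumping by cell, so it does not cover genes with most UMIs in 1 cell. A gene at 0 was set to a floor of 3 counts over the group. With 1 library per group, called means at least 2-fold on at least 20 UMIs.

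Members, classes and lists were chosen with earlier results of these data known. All members are named. Of the 51 list genes, up to 3 per comparison and direction past 2-fold were eligible, those whose interval lay farthest from no change. Of these, 1 gene is not reported here. Genes alike to Bmp7 or Inhba were to be named from a correlation of 0.5, and the top 1 of each is named as falling short. Doublets were kept (Scrublet in scanpy 1.11.5 called 2 of 268 Ctrl and 6 of 86 Fgfr2 KO cells, but over 4 random seeds from 2 to 3 and from 1 to 13, so the calls are not stable). No barcode occurred in both libraries (0 shared). Alternatives varied the keratin minimum and excess, the Ptprc minimum, the top cells, cells over 25% mitochondrial UMIs, weights per cell, doublets, thresholds and thinning to 5000 UMIs. Those on CD45-positive cells with keratins, on GFP, on list genes and without single top cells were added after the data were seen. Positions are from GENCODE M21 (GRCm38).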

Additional observations from a re-analysis of the deposited data

Results flagged for a closer look

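Keratin-low cells (34 in Ctrl, 26 in Fgfr2 KO) entered none of the reported comparisons between classes or libraries, yet held members above the 3 counts that a count of 0 allows. In Ctrl these were 47 UMIs of Fst (139 CPM, 102 to 185), 36 of Tgfb1 (107 CPM, 74.8 to 148), 15 of Inhba (44.5 CPM, 24.9 to 73.4), 7 of Bmpr2, 7 of Tgfb2, 6 of Acvr1, 5 of Bmp7 and 5 of Bmpr1a. In Fgfr2 KO these were 12 UMIs of Tgfb1 (73.9 CPM, 38.2 to 129). The keratin-low cells of Ctrl carried all 6 fibroblast markers (19044 CPM summed) and 6 of 8 immune markers (8556 CPM), and those of Fgfr2 KO 5 of 6 (1872 CPM) and 6 of 8 (8399 CPM). These cells were among the 195 of the correlations and in the alternative without a keratin minimum. The part of these cell types in the member values was not tested.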

How the results depend on the processing

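No member's ratio past 2-fold changed its direction under any alternative. Of 748 log2 ratios of members recomputed, 671 stayed within the counting interval of the reported value and 77 did not. Some alternatives left the cells of a comparison unchanged, so part of the 671 could not move. Of 95 counts of members past 2-fold, 75 stayed equal or within a factor of 1.5, and 20 did not. Of 57 shares of cells with a UMI, 20 stayed within their interval after thinning to 5000 UMIs and 37 did not. Thinning takes UMIs away from deeper cells, so shares generally had to fall, and this tally does not measure stability. Of 362 ratios of eligible list genes, 302 stayed, 51 moved and 9, all of Id1, turned. From 2 Ptprc UMIs, with under 10 keratin UMIs required, and with keratin-rich cells moved, Id1 of Fgfr2 KO over Ctrl in CD45-positive cells became 1.71, 1.52 and 1.52, and CD45-positive over keratin cells in Ctrl -2.44, -1.26 and -2.26. Basal over luminal in Ctrl, Id1 became -0.07 from 2 Ptprc UMIs and -0.04 without a Ptprc filter or with keratin-rich cells moved. Bmp7 basal over luminal in Ctrl became 4.53 with a 3-fold keratin excess, Inhba in the same comparison -4.49 with a GFP UMI required, and Inhba of Fgfr2 KO over Ctrl in luminal-keratin cells -0.06 without one. Bmp7 in basal-keratin cells stayed between -0.58 and -0.34. Some counts moved by no more than that factor of 1.5, and not all of them are listed. In Ctrl, basal over luminal went from 4 to 6 from 2 Ptprc UMIs. CD45-positive over keratin cells of Ctrl went from 7 to 10 from 2 Ptprc UMIs or with equal weight per cell, and to 6 without Scrublet doublets. Counts of members past 2-fold that moved by more, or to 0, were as follows. In basal-keratin cells 1 became 4 without the top cells, 2 with equal weight per cell, 3 at a fold of 1.5 and 3 without or with GFP. In luminal-keratin cells 1 became 0 with a 3-fold keratin excess, 3 without GFP, and 2 without the top cells, without Scrublet doublets, at a fold of 1.5 or with GFP. In CD45-positive cells 2 (of 3 tested) became 0 from 2 Ptprc UMIs (of 2 tested) or with keratin-rich cells removed or moved (of 1 tested), 1 with equal weight, and 4 at a minimum of 10 UMIs. Basal over luminal in Ctrl, 4 became 9 at a fold of 1.5, and in Fgfr2 KO 3 of 7 tested became 1 of 1 without GFP. CD45-positive over keratin cells in Fgfr2 KO, 7 of 7 became 3 of 7 from 2 Ptprc UMIs and 2 of 2 without GFP. Without GFP these counts fell because members had under 20 UMIs, and 4 and 6 such members still differed past 2-fold. For the other changes the cause was not tested, and the Scrublet calls change with the random seed. Without a Ptprc filter there is no CD45-positive class, so that alternative gave no value for it. With 17 and 20 Fgfr2 KO keratin cells, most members' intervals span more than 2-fold. No paired analysis was possible because each group had 1 library.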
